A study of Mus musculus with 10 samples.

Results

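The 8 genes described here encode the proteins that move water and ions across astrocyte endfeet or hold that machinery in the membrane: Aqp4, Kcnj10, Kcnj16, Atp1b2, Slc4a4, Mlc1, Hepacam and Dag1. They were chosen by symbol, for what their products do, with earlier results of these data known, and all 8 were found among the 12575 genes of the expression table. Cortical tissue of C57BL/6 mice was profiled by bulk RNA sequencing in 10 libraries, 5 labelled Cre-negative (Cre-) and 5 labelled Cre-positive (BMAL1 aKO). By the study's methods both genotypes carried floxed Bmal1 alleles on both chromosomes (Bmal1 fl/fl) and received tamoxifen, were littermates, and differed in the Cre recombinase CreERT2, which the astrocyte promoter of Aldh1l1 drives and tamoxifen activates. The labels give an age of 4 months for every mouse, and the study's text gives an older age. The study also counts 4 BMAL1 aKO mice where the labels list 5 libraries, without a label for the one not used, so all 10 were analysed and each was left out in turn. Values are CPM, the reads of a gene scaled to a fixed total of mapped reads, and a difference is given as log2 of BMAL1 aKO over Cre-.

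Astrocytes wrap brain capillaries and the brain surface with flattened endfeet. Water crosses these membranes through aquaporin-4, potassium released by active neurons is taken up by inward rectifier channels and by the sodium pump, and bicarbonate is carried together with sodium. The MLC1 and GlialCAM proteins take part in volume regulation, and dystroglycan ties the dystrophin complex, which holds aquaporin-4 in place, to laminin and agrin in the basement membrane.

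The libraries held 21844770 to 48295715 reads, so that every Aqp4 value rested on at least 2270 reads and counting error was small beside the spread between mice. Arntl, the gene that encodes BMAL1, measured 34.0, 31.9, 32.2, 37.1 and 35.8 CPM across Cre- libraries 1 to 5, against 35.7, 33.0, 38.8, 31.1 and 33.9 CPM for those of BMAL1 aKO in the same order. Its groups overlapped, with a log2 fold change of 0.01 ± 0.071 (SE) and an adjusted p = 0.932 in limma. The value sums all exons and all cell types of the tissue, so it does not check the astrocyte deletion. Neuron markers averaged 9.07 to 9.21 in Cre- and 9.03 to 9.24 in BMAL1 aKO on the log2(CPM + 0.5) scale, and astrocyte markers 7.36 to 7.76 and 7.53 to 7.84, so both were plentiful in every library. Of 15 astrocyte markers 1 passed the test, Ntsr2, a neurotensin receptor of astrocytes, where 0.334% of all genes did. Its log2 fold change was 0.47 with an adjusted p = 0.021 in limma with sample quality weights. Without the weights it was 0.33 with an adjusted p = 0.803 in limma. Markers of striatum, which borders the cortex, ran from 4.69 to 7.24 in Cre- and from 5.40 to 6.18 in BMAL1 aKO, with Cre- replicate 3 highest. In bulk tissue, fewer cells of a type and less RNA per cell cannot be told apart.

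Promoter sequences are shown for Kcnj10 and Kcnj16, the 2 potassium channel subunits, because their RNA varied in opposite directions between libraries of one genotype, as described further on. Each is the 250 bases before the first annotated start in RefSeq (GRCm38.p6), on the strand of the gene, with matches to CANNTG, the general E-box core, in capitals.
Kcnj10, chr1:172340960-172341209, plus strand: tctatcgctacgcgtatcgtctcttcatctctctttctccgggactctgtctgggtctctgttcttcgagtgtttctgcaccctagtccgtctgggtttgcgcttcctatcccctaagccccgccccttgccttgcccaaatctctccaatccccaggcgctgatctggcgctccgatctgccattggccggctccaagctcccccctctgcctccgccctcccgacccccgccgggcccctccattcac
Kcnj16, chr11:110967783-110968032, plus strand: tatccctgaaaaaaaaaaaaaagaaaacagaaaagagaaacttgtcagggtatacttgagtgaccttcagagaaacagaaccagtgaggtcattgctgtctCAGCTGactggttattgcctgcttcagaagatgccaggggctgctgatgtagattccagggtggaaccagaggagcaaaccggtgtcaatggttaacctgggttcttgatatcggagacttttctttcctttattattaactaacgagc
The Kcnj10 window was 62.0% G+C and held no CANNTG, while the Kcnj16 window shown was 42.8% G+C and held 1. Kcnj16 has further annotated starts. The windows before its starts 2, 3 and 4, not shown, were 47.6, 51.2 and 44.8% G+C and each held 0 CANNTG. CLOCK and BMAL1 bind the E-box CACGTG and, less strictly, CACGTT. RefSeq windows of 6 of the 8 genes were searched, 11 windows in all, and Aqp4 and Atp1b2 were not among them. CACGTG, which reads the same on both strands, was in 0 of these 11 and in 6.02% of 32851 promoter windows of the same length. CACGTT, searched on both strands, was in 0 of the 11 and in 3.85% of all windows, and CANNTG, which contains the CACGTG matches, was in 66.2% of all. These are matches of letters within 250 bases only.

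No endfoot gene passed the test between genotypes: 0 of 8 had an adjusted p of at most 0.1 (limma with sample quality weights, Benjamini-Hochberg over all genes), where 42 of 12573 genes, 0.334%, did. At an unadjusted p under 0.05 there were 3 of 8, Kcnj16, Atp1b2 and Kcnj10, against 16.8% of all genes. Without the weights it was 1 of 8, Kcnj16, against 4.79%, with 0 past the adjusted threshold, against 0.0318% of all genes. With voomWithQualityWeights it was 3 of 8 against 10.4%, with 0 past the adjusted threshold, against 0.231%. Log2 fold changes were above 0 for 6 of 8 genes, against 38.4% of all genes. The median log2 fold change was 0.13 over the 8 genes and -0.04 over all genes, or 0.03 and -0.05 without the weights. For each of the 8 genes the ranges of the 2 genotypes overlapped, while 126 of 12573 genes, 1%, did not overlap.

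**Figure D1:**
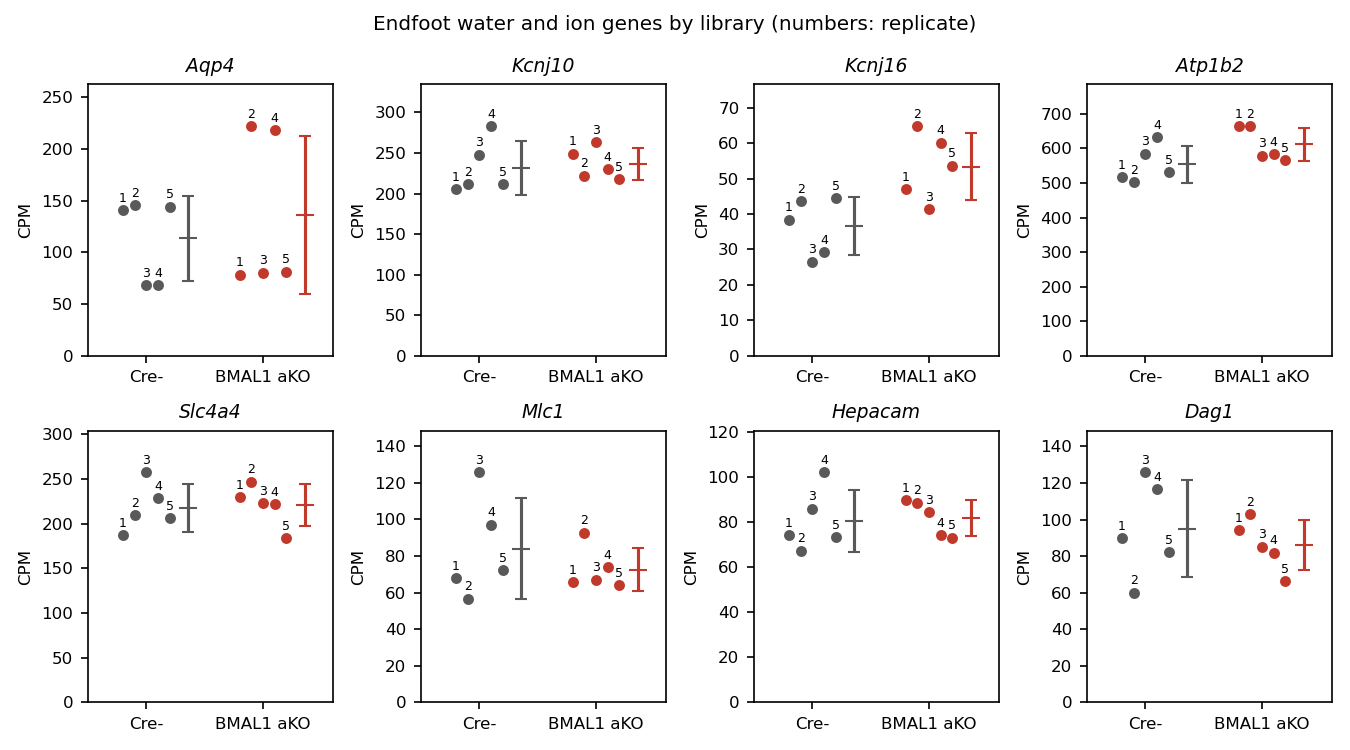
CPM of the 8 endfoot genes in each library (points, numbered by replicate), with the mean and SD of each genotype (n = 5) as a bar beside the points. Aqp4 splits into 5 low and 5 high libraries that cut across genotype, and 4 of 5 BMAL1 aKO libraries lie above all Cre- libraries for Kcnj16.

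Aqp4 (ENSMUSG00000024411, chr18:15389496-15410982, minus strand, GRCm38), the water channel, was the least even of the 8 genes. Here and for the genes that follow, values run from replicate 1 to 5. Cre- libraries gave 141.1, 145.7, 68.5, 68.4 and 144.4 CPM, and BMAL1 aKO libraries gave 78.5, 222.4, 80.6, 218.4 and 81.3 CPM. Both genotypes thus held low and high libraries: in Cre- the low ones were replicates 3 and 4, in BMAL1 aKO they were replicates 1, 3 and 5, the other 5 were high, and no value fell between 81.3 and 141.1 CPM. Cre- averaged 113.6 ± 41.2 CPM, with 136.2 ± 76.8 CPM for BMAL1 aKO (SD, n = 5 each). The log2 fold change was -0.20 ± 0.277 (SE, adjusted p = 0.729, limma) with the weights and 0.17 ± 0.371 (adjusted p = 0.887) without them. An exact permutation test gave p = 0.722. The direction therefore differed between the fits, and the library with the greatest weight, Cre- replicate 1 at 7.19, is a high one. The span of Aqp4 overlaps that of the antisense gene AC133525.2, and the library kit is not stated to keep strand. Whether exons of the 2 overlap was not checked, and the part of antisense reads in the Aqp4 values was not tested.

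Kcnj10 (ENSMUSG00000044708, chr1:172341210-172374085, plus strand) encodes Kir4.1, the main inward rectifier of astrocytes. Cre- libraries gave 205.5, 211.3, 248.1, 283.4 and 211.8 CPM, and BMAL1 aKO libraries 249.1, 222.1, 263.7, 229.9 and 218.1 CPM. The highest 2 values came from different genotypes. Its log2 fold change was 0.17 ± 0.077 (SE, adjusted p = 0.289, limma) and 0.04 without the weights, and the exact permutation p was 0.706.

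Kcnj16 (ENSMUSG00000051497, chr11:110968033-111027968, plus strand) encodes Kir5.1, which joins Kir4.1 in mixed channels. It had the largest difference of the 8 in the weighted and the unweighted fit, from 38.5, 43.6, 26.6, 29.3 and 44.5 CPM in Cre- to 46.9, 64.8, 41.4, 60.1 and 53.7 CPM among BMAL1 aKO libraries. Only BMAL1 aKO replicate 3 fell within the Cre- range. The means were 36.5 ± 8.19 and 53.4 ± 9.52 CPM (SD, n = 5 each), a ratio of 1.46. The log2 fold change was 0.41 ± 0.118 (SE, 95% interval 0.16 to 0.67), with an unadjusted p = 0.00398 and an adjusted p = 0.176 in limma, and 0.55 without the weights (adjusted p = 0.803). The exact permutation test gave p = 0.0318, where the smallest p that 5 against 5 allows is 0.00794.

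Leaving out BMAL1 aKO replicate 3 put Kcnj16 past the threshold, with a log2 fold change of 0.55 ± 0.107 and an adjusted p = 0.0433 in limma. It was the only library of its genotype inside the Cre- range, so the separation of the other 4 from Cre- was fixed by that choice. The fit without it passed 844 of 12572 genes, 6.71%, against the 42 of the fit of all 10 libraries. Over all alternatives the adjusted p of Kcnj16 ran from 0.0433 to 0.925 and its log2 fold change from 0.31 to 0.60, above 0 throughout. The summed level of the 15 astrocyte markers ran from 8634 to 10040 CPM in Cre-, and in BMAL1 aKO from 9403 to 11240 CPM. Slc1a2 made the largest part, with means of 4541 CPM without Cre and 5259 CPM for BMAL1 aKO. Glul was lower in BMAL1 aKO, at 1472 against 1582 CPM. The mean of the markers on the log2(CPM + 0.5) scale was 0.05 higher in BMAL1 aKO (exact permutation p = 0.587). Of their 15 log2 fold changes 11 were above 0, against 38.4% of all genes. Their median was 0.09, or 0.04 without the weights. The part of astrocyte marker levels in the Kcnj16 difference was not tested.

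**Figure D2:**
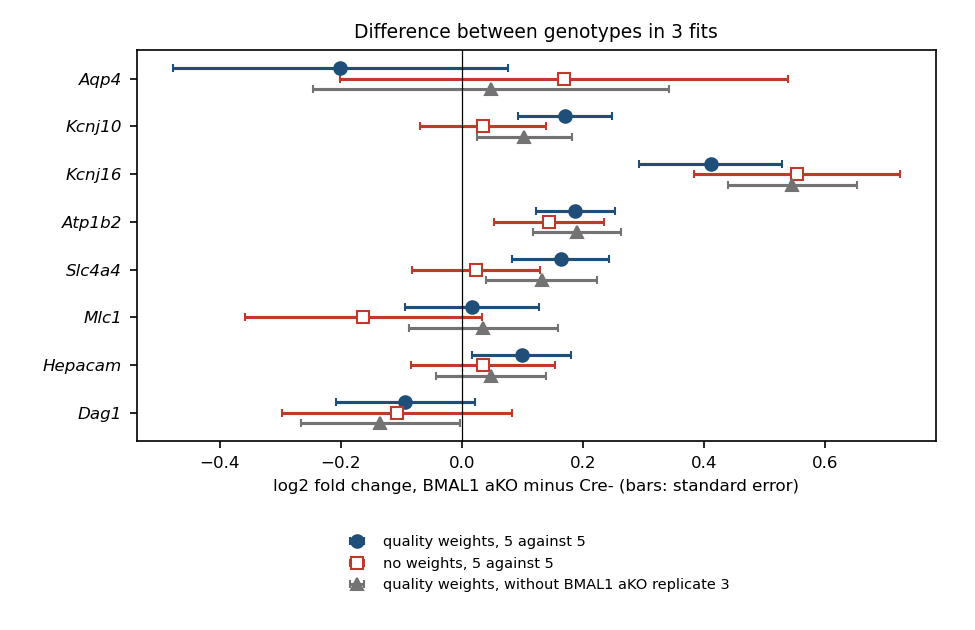
Log2 fold change of BMAL1 aKO over Cre- for each gene, with standard errors, in the fit with quality weights, the fit without them and the weighted fit without BMAL1 aKO replicate 3. Kcnj16 is above 0 in all 3 at 0.41, 0.55 and 0.55, while Aqp4 and Mlc1 lie on both sides of 0.

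Atp1b2 (ENSMUSG00000041329, chr11:69599736-69605942, minus strand) encodes the beta-2 subunit of the sodium pump, the glial form. The Cre- libraries stood at 517.3, 503.3, 585.3, 632.7 and 531.1 CPM, those of BMAL1 aKO at 663.7, 665.3, 578.9, 583.2 and 566.9 CPM. BMAL1 aKO replicates 1 and 2 stood above every Cre- library and the other three lay inside the Cre- range. The log2 fold change was 0.19 ± 0.065 (SE, adjusted p = 0.198, limma), 0.14 without the weights, and the exact permutation p was 0.111.

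Slc4a4 (ENSMUSG00000060961, chr5:88886818-89239653, plus strand) encodes NBCe1, the sodium bicarbonate cotransporter. Levels were 186.8, 209.2, 257.2, 228.3 and 205.8 CPM without Cre, and 229.4, 247.0, 222.5, 221.3 and 183.3 CPM in BMAL1 aKO. The Cre- range held 4 of the 5 values and BMAL1 aKO replicate 5 was lowest of all. The log2 fold change was 0.16 ± 0.081 (SE, adjusted p = 0.322, limma) and 0.02 without the weights.

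Mlc1 (ENSMUSG00000035805, chr15:88955884-88979007, minus strand) encodes a membrane protein whose loss causes megalencephalic leukoencephalopathy with subcortical cysts. The Cre- values were 67.9, 56.7, 125.6, 97.0 and 72.0 CPM, the BMAL1 aKO values 65.5, 92.7, 66.9, 73.8 and 63.9 CPM. Cre- held both the lowest and the highest library, replicates 2 and 3. The log2 fold change was 0.02 ± 0.110 (SE, adjusted p = 0.951, limma) and -0.16 without the weights. Hepacam (ENSMUSG00000046240, chr9:37367351-37386575, plus strand) encodes GlialCAM, the adhesion protein that brings MLC1 to cell contacts. It was more even, with Cre- values of 74.0, 67.3, 85.8, 101.9 and 73.3 CPM and BMAL1 aKO values of 89.5, 88.5, 84.2, 74.0 and 72.9 CPM. All 5 BMAL1 aKO libraries lay inside the Cre- range, and the log2 fold change was 0.10 ± 0.081 (SE, adjusted p = 0.542, limma).

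Dag1 (ENSMUSG00000039952, chr9:108204634-108263958, minus strand), which encodes dystroglycan, had Cre- values of 89.8, 60.1, 125.8, 116.8 and 82.3 CPM and BMAL1 aKO values of 94.4, 102.9, 85.1, 81.9 and 66.3 CPM. As for Mlc1, Cre- replicate 2 was the lowest and Cre- replicate 3 the highest library. The log2 fold change was -0.09 ± 0.115 (SE, adjusted p = 0.692, limma) and -0.11 without the weights.

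Per kilobase of exon, the order of the mean levels in Cre- was Atp1b2 at 135.6 ± 13.2 CPM per kb, Kcnj10 at 42.9 ± 6.16, Mlc1 at 29.9 ± 9.85, Hepacam at 24.0 ± 4.10, Slc4a4 at 20.1 ± 2.46, Aqp4 at 18.2 ± 6.62, Dag1 at 14.9 ± 4.18 and Kcnj16 at 9.27 ± 2.08 (SD, n = 5). Atp1b2 and then Kcnj10 stood clear of the rest. From Mlc1 down to Dag1, each difference between neighbours in the order was smaller than the larger of their SDs, while that between Dag1 and Kcnj16 was greater. In BMAL1 aKO, Kcnj16 at 13.6 ± 2.42 CPM per kb was level with Dag1 at 13.6 ± 2.17.

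The spread between libraries of one genotype differed among the 8 genes. That Aqp4 varied between libraries was known when the genes were chosen, so its ranks are given as a description. The SD within genotypes on the log2 scale was 0.698 for Aqp4, which ranked 169 of 12573 genes and 23 of the 4077 genes with a mean of at least 50 CPM. The median gene had 0.227, or 0.191 among those 4077. Mlc1 had 0.355, Dag1 0.344 and Kcnj16 0.299, above the median of all genes, while Hepacam at 0.193, Slc4a4 at 0.166, Kcnj10 at 0.162 and Atp1b2 at 0.126 were below it. The empty interval between the low and high Aqp4 libraries was 0.79 on the log2 scale, a ratio of 1.73. Measured between the fifth and sixth ranked library of each gene, this gap ranked 5 of 12573 genes, after Fabp7, Egfl6, Hebp2 and Gm23935. This ranking took all 10 libraries without regard to genotype, so a gene that separates the genotypes also ranks high. Fabp7 is the gene that the study names as most highly upregulated in BMAL1 aKO.

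The libraries also differed in how their values depended on the G+C content of transcripts. Relative to the mean library, log2 values moved by 0.472 per 10% G+C in Cre- replicate 3, by 0.22 in Cre- replicate 4 and by -0.286 in Cre- replicate 2. In BMAL1 aKO the trend ran from -0.172 to 0.0981. The longest transcripts of the 8 genes span 41.4% G+C for Aqp4, 43.2% for Kcnj16, 45.9% for Slc4a4 and 49.6% for Kcnj10, up to 51.9% for Mlc1, 52.4% for Atp1b2, 52.8% for Dag1 and 53.3% for Hepacam. With a smooth G+C trend removed from each library, a step added after the data were seen, the SD of Mlc1 was 0.226 and that of Dag1 was 0.199, where the median of all genes was 0.178. Aqp4 kept an SD of 0.636, the same 5 libraries were low, and the gap between the sets was 0.64. The Kcnj16 difference was then 0.47 on the log2 scale (adjusted p = 0.244, limma).

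**Figure D3:**
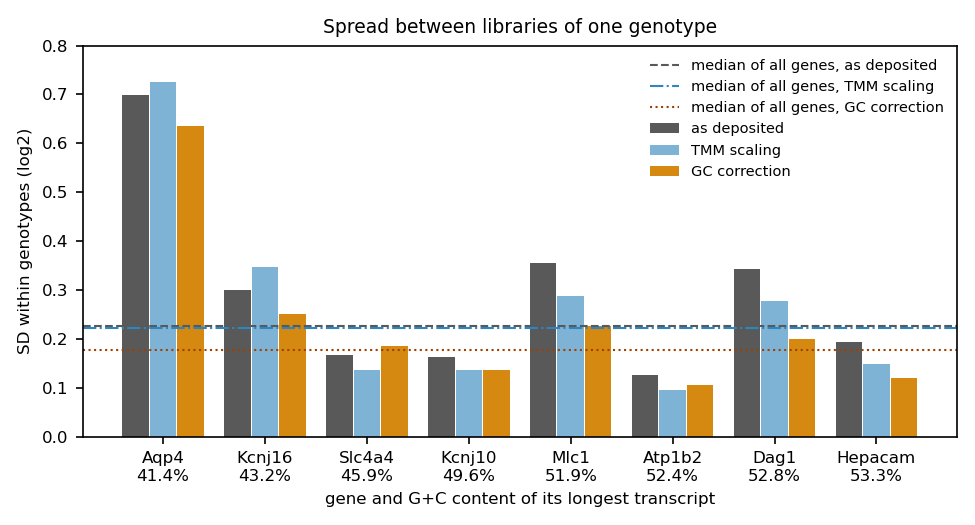
SD within genotypes of log2(CPM + 0.5) for each gene, ordered by the G+C content of its longest transcript, as deposited, after TMM scaling and after removal of the G+C trend. Horizontal lines mark the median of all genes in each scaling, 0.227, 0.222 and 0.178, and Aqp4, Kcnj16, Mlc1 and Dag1 stand above it in all 3.

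Kcnj16 was the endfoot gene whose library pattern was most like that of Aqp4. With each genotype centred on its own mean, Pearson's r over the 10 libraries was 0.874, rank 22 of 11531 genes with a mean of at least 5 CPM, and 0.837 after the G+C trend was removed. Kcnj10 ran the other way, with r = -0.680 (rank 11260) and -0.618 after the G+C step, and Kcnj10 and Kcnj16 had a centred r of -0.831 with each other, or -0.644 after that step. Hepacam had r = -0.490, which was -0.134 after the G+C step, and Atp1b2, Dag1, Mlc1 and Slc4a4 lay between -0.309 and -0.096. After that step Atp1b2 was at 0.242 and Mlc1 at 0.087, with the sign turned, and Dag1 and Slc4a4 were at -0.02 and -0.06. These coefficients describe the pattern only and carry no test, because the Aqp4 values form 2 separate sets of 5 libraries and all genes share the same libraries.

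Outside the 8 genes, the highest centred r with Aqp4 belonged to Cntnap5a (0.935), Sptlc2 (0.935), Fgd4 (0.918), Tnfaip8 (0.910), AW554918 (0.910), Fndc3a (0.909), Ranbp3l (0.908) and Gpc6 (0.903). Brsk2 (-0.936), Ctsb (-0.929), Adssl1 (-0.923) and Mb21d2 (-0.896) had the lowest. None of these 12 genes moved as far as Aqp4: their highest library was 1.23 to 1.86 times their lowest, against 3.25 times for Aqp4. On chromosome 18, the 7 genes of the table within 2000 kb of Aqp4 had SDs within genotypes of at most 0.266. Their centred r with Aqp4 ran from -0.354 to 0.727, with Kctd1, the nearest at 238.1 kb, at -0.05, and Cdh2, Ss18 and Gm15328 the highest at 0.727, 0.624 and 0.611.

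**Figure D4:**
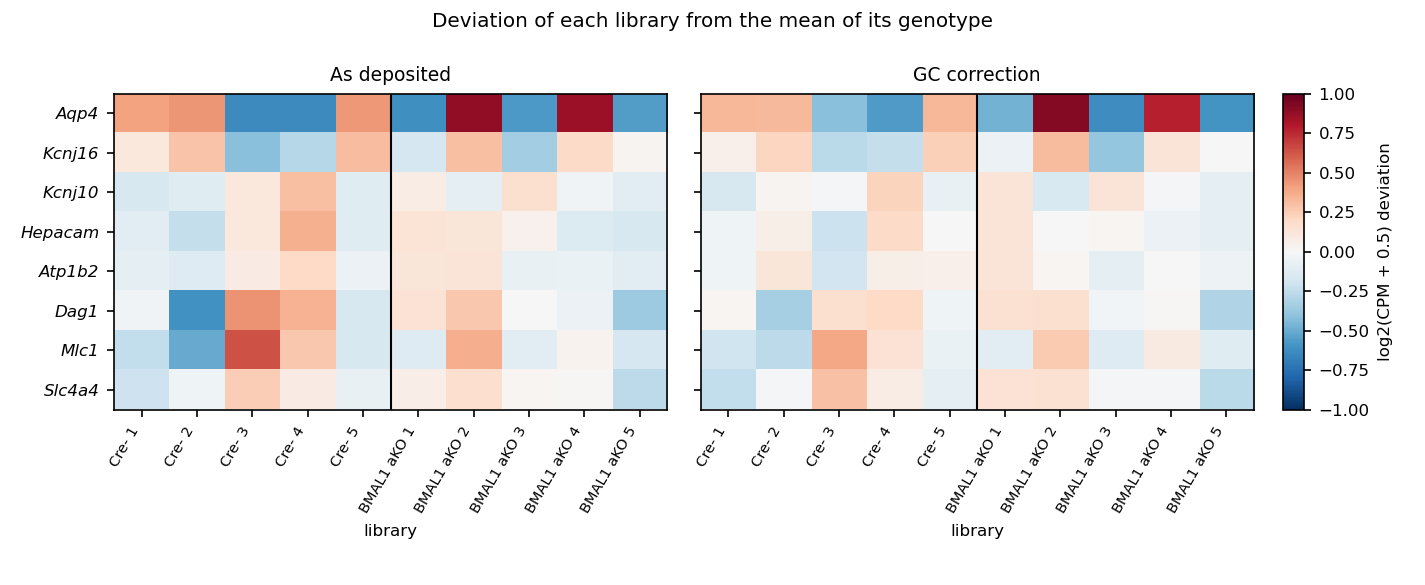
Deviation of each library from the mean of its genotype, on the log2(CPM + 0.5) scale, for the 8 genes in 10 libraries, as deposited and with the G+C trend removed. On the left, Aqp4 and Kcnj16 share the sign of their deviation in all libraries but BMAL1 aKO replicate 5, and the strong Mlc1 and Dag1 colours of Cre- replicates 2 and 3 are paler on the right, where the within-genotype SD is 0.226 and 0.199.

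Cell type markers were set beside the 2 Aqp4 sets as values. Astrocyte markers averaged 7.52, 7.36 and 7.56 in the high Cre- libraries and 7.76 and 7.74 in the low ones, against 7.84 and 7.62 in the high BMAL1 aKO libraries and 7.64, 7.60 and 7.53 in the low ones. The high Aqp4 libraries therefore had the lower astrocyte marker level in Cre- and not in BMAL1 aKO. Meningeal fibroblast markers (5 of 6 measured) averaged 3.66 and 3.72 in BMAL1 aKO replicates 2 and 4, the 2 with high Aqp4, and 2.79 to 3.32 in the other three. In Cre- the same markers were at 3.15, 3.34 and 3.34 where Aqp4 was high and at 3.40 and 3.07 where it was low. The choroid plexus and ependymal markers measured (3 of 6) were highest in Cre- replicates 4 and 5 and BMAL1 aKO replicate 1, at 5.10, 5.51 and 5.80, of which 1 was high and 2 were low in Aqp4. The part of meningeal or other tissue in the Aqp4 levels was not tested.

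The other 7 genes were compared with each other over the 10 libraries, in 21 pairs, with 2-sided permutation tests adjusted over the pairs. All 15 pairs without Kcnj16, a grouping that was not planned, had a positive r, from 0.448 to 0.880. Of these 15, 4 had an adjusted permutation p under 0.05. Pairs of other genes were not measured beside them, although all genes share the same libraries. Mlc1 and Dag1 had r = 0.880 and rho = 0.770 (permutation p = 0.0004 and 0.0126, adjusted p = 0.0084 and 0.0516), and r = 0.758 without the 2 libraries farthest from the median of Mlc1. Hepacam was in the other three pairs: r = 0.836 with Kcnj10, 0.830 with Atp1b2 and 0.824 with Dag1, each with an adjusted permutation p = 0.0186, and rho of 0.733, 0.842 and 0.891 (adjusted permutation p = 0.0606, 0.0408 and 0.0239). Their r was 0.741, 0.780 and 0.694 without the 2 libraries farthest from the median of Kcnj10, Atp1b2 and Hepacam, in that order.

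Not all of these relations were the same once the G+C trend was removed. Hepacam and Atp1b2 had r = 0.830, Kcnj10 and Hepacam 0.694 and Mlc1 and Dag1 0.663, while Hepacam and Dag1 had 0.103, and the 15 pairs then ranged from -0.437 to 0.830. The 6 pairs with Kcnj16 had r from -0.520 to 0.140 as deposited, with no adjusted permutation p below 0.184, and from -0.256 to 0.806 after the G+C step, the highest with Atp1b2. Without the 2 libraries farthest from the median of Kcnj10, the pair with Kcnj10 had r = -0.234. Without the 2 farthest from the median of Kcnj16, the other 5 lay between 0.195 and 0.650, so the sign of most Kcnj16 pairs rested on those libraries. The r of these 21 pairs were not centred on the genotype means.

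Among 69 measured genes of 8 related lists, which hold other channels, pump subunits, transporters and partners of the endfoot proteins, 0 passed the test in either direction. At an unadjusted p under 0.05 there were 14, 20.3%, against 16.8% of all genes. Without the weights there were 2, against 4.79% of all genes. The median log2 fold change of the 69 was -0.06, beside -0.04 for all genes.

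By role, the 1 other water channel measured, Aqp11, had a log2 fold change of 0.12. Of 10 other potassium channel genes, 2 had a log2 fold change above 0, and the 2 with the smallest p were Kcnj6, a neuronal G protein-gated channel, at -0.39 (adjusted p = 0.183, limma) and Kcnj11, the pore of ATP-sensitive channels, at -0.47 (adjusted p = 0.278, limma). Among 9 sodium pump genes the leading ones were Fxyd1, phospholemman, at 0.43 (adjusted p = 0.175, limma) and Atp1b1, the beta subunit that neurons use, at -0.16 (adjusted p = 0.252, limma). The beta-1 and beta-2 subunits thus had fold changes of opposite sign, neither past the threshold.

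In the acid-base list of 11 genes, 3 had a log2 fold change above 0. Slc4a10, a sodium-driven bicarbonate transporter of neurons, had the smallest p of all 69 genes. Cre- averaged 192.2 ± 19.8 CPM and BMAL1 aKO 158.5 ± 11.2 CPM (SD, n = 5 each), with a log2 fold change of -0.29 ± 0.068 (adjusted p = 0.138 in limma), and the exact permutation p was 0.0159. Slc4a8, of the same family, followed at -0.21 (adjusted p = 0.198, limma). In the list of MLC partners and volume-regulated channels the leading 2 of 8 genes were Lrrc8a, the required subunit of the volume-regulated anion channel, at 0.38 (adjusted p = 0.184, limma) and Lrrc8b at -0.28 (adjusted p = 0.267, limma).

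Of 9 dystrophin complex genes, Sspn, sarcospan, was at 0.34 (adjusted p = 0.166, limma) and Sgce, epsilon-sarcoglycan, at 0.16. The 10 dystroglycan ligands, led by Agrn at -0.19 and Lamc1 at 0.10, held none with an unadjusted p under 0.05. The 11 glycosylation enzymes that make dystroglycan bind its ligands included Pomk at -0.29 (adjusted p = 0.213, limma). Without BMAL1 aKO replicate 3, 8 of the 69 passed the adjusted threshold, against 6.71% of all genes. Among them were Fxyd1 and Lrrc8a with higher values, and Kcnj6, Atp1b1, Slc4a8 and Slc4a10 with lower ones in BMAL1 aKO.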

How the data were processed

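RNA of cortical tissue was sequenced in 10 libraries. Per the labels, the authors aligned reads with STAR 2.5.1a to GRCm38 and counted them with featureCounts 1.4.6-p5. The deposited values are CPM per gene, whole reads of each library within 0.01 read, without TMM scaling. The 12573 genes that exceeded 1 CPM in 4 or more libraries were fitted as log2(CPM + 0.5), which understates changes of low genes, with limma 3.58.1 (R 4.3.3), sample quality weights (0.181 to 7.19) and a variance trend, at a Benjamini-Hochberg threshold of 0.1. Exact permutation tests were 2-sided, on mean log2 values. The fit was tested on simulated counts with the same added spread for every gene, no G+C trend and equal library quality, unlike these libraries. Positions, exon lengths and G+C content come from GENCODE M21. The labels name no batch and no mouse of origin, so p-values measure the spread between these samples, which exceeded sampling noise for every pair of replicates. The members and lists were chosen with earlier results of these data known. Named genes are the members, the 2 of smallest p in each related list, and the 8 of highest and 4 of lowest r with Aqp4. Some genes that this rule would name are not reported here. The genes ranked above Aqp4 by gap were named after their values were seen. The alternatives (pseudocount, filter, weights, scaling, voom, replicate block, libraries left out) are in the closing section.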

Additional observations from a re-analysis of the deposited data

How the results depend on the processing

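The number of endfoot genes past the threshold was 0 under every alternative run but 1: over the fits that left out 1 library each it ran from 0 to 1, and the number of related genes from 0 to 8. BMAL1 aKO replicate 3 gave both upper values, with Kcnj16 at 0.55 (adjusted p = 0.0433, limma). Fits of all genes called 42 genes as reported, 4 without weights or with TMM scaling and no weights, 68 with TMM scaling, 65 with quantile normalization, 7 with the replicate block, and 1 (without Cre- replicate 1) to 844 (without BMAL1 aKO replicate 3) with 1 library left out. No endfoot gene was called with the replicate block, 0 of 8, nor any related gene, 0 of 69. Same-numbered libraries did not deviate together (r from -0.625 to 0.364), so the numbers were not taken as pairs.

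Kcnj10, Kcnj16, Atp1b2 and Hepacam kept a log2 fold change above 0 in all 22 alternatives. Aqp4 changed sign to 0.17 without weights and 0.22 with TMM scaling and no weights, and to 0.042 and 0.0482 without Cre- replicate 5 and BMAL1 aKO replicate 3. With 1 library left out it ran from -0.469 to 0.0482. Mlc1 changed sign to -0.16 without weights, -0.11 with TMM scaling and no weights and -0.18 with the replicate block, and to -0.11, -0.0017, -0.09 and -0.05 without Cre- replicates 1, 2 and 5 and BMAL1 aKO replicate 2; over all left-out libraries it ran from -0.107 to 0.0589. Slc4a4 was at -0.0367 with the replicate block, and Dag1 ran from -0.176 to 0.00996 with 1 library left out, above 0 without BMAL1 aKO replicate 5. The cause was not tested. The Aqp4 SD within genotypes was 0.725 with TMM scaling, 0.636 after the G+C step and 0.646 to 0.727 with 1 library left out.

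The G+C step and TMM scaling without weights were added after seeing the data. The planned quasi-likelihood count test was not run. Whole reads worked out from the CPM entered voomWithQualityWeights, the TMM factors, the Aqp4 read numbers, the sampling noise comparison and the simulated data. The planned permutation tests of Aqp4 against other measures are not given, because its libraries form 2 sets of 5. The weights did not converge in 2 of 21 weighted fits, those without Cre- replicate 1 and without Cre- replicate 5.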

Other observations

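Mitochondrial-encoded genes, which are part of the respiratory chain, averaged 9.36 to 10.88 in Cre- and 10.36 to 10.95 in BMAL1 aKO on the log2(CPM + 0.5) scale. They were lowest in Cre- replicates 3 and 4, where Aqp4 and Kcnj16 were also lowest. BMAL1 aKO libraries showed no such order. The lowest of that genotype was replicate 2 at 10.36, where Aqp4 and Kcnj16 were highest. Replicate 4, also high in both, was at 10.75. The highest was replicate 1 at 10.95, where Aqp4 was the lowest of that genotype. Replicates 3 and 5, also low in Aqp4, were at 10.44 and 10.51. All 13 mitochondrial-encoded genes had a log2 fold change above 0, against 38.4% of all genes, and 0 passed the threshold. At an unadjusted p under 0.05 in limma there were 6, against 16.8% of all genes. Without the weights there was 1, against 4.79%. The mean of the list was 0.48 higher in BMAL1 aKO (exact permutation p = 0.127). The part of mitochondrial-encoded genes in the Aqp4 and Kcnj16 levels was not tested.

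Oligodendrocyte markers averaged 7.15 to 7.93 in Cre- and 7.24 to 7.76 in BMAL1 aKO, and oligodendrocyte precursor markers 4.47 to 5.34 and 4.73 to 4.97. Microglia markers averaged 4.40 to 4.997 and 4.47 to 4.83, endothelial markers 4.39 to 4.81 and 4.40 to 4.76, and mural cell markers 3.93 to 4.43 and 3.75 to 4.28. Nuclear long noncoding RNAs averaged 9.80 to 10.34 and 10.05 to 10.27. None of the genes in these 6 lists passed the threshold in limma.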
